A study of Homo sapiens with 6 samples.

Results

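Chemokines are small secreted proteins that direct the movement of leukocytes, and 10 chemokine genes were followed in the RNA-Seq data of MCF10A cells: CXCL1, CXCL2, CXCL3, CXCL5, CXCL6, CXCL8, CXCL16, CCL2, CCL20 and CX3CL1. They were found by gene name among the 58735 genes of the count table, and all 10 were present. MCF10A is an established line of nonmalignant human breast epithelial cells, grown here with horse serum, insulin, epidermal growth factor, cholera toxin and hydrocortisone. Cells were transfected with siRNA against DAB2IP (siDAB2IP, 3 libraries) or with a nontargeting control pool (siControl, 3 libraries), and total RNA was taken 48 hours later. The genotype label of the control libraries is WT, the knockdown was transient, and 1 siRNA reagent was used, so its off-target effects and the loss of DAB2IP cannot be told apart. DAB2IP encodes a RAS GTPase-activating protein, and the comparison asked how expression differed when it was depleted.

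Many chemokine genes are held at a low level in resting epithelium and are switched on within a short time by interleukin-1, TNF or microbial products. The signal frees NF-κB dimers from their IκB inhibitors, the dimers bind κB sites in the promoters, and the short-lived mRNAs are then removed by proteins that recognize AU-rich elements. CXCL1, CXCL2, CXCL3, CXCL5, CXCL6 and CXCL8 (interleukin-8) recruit neutrophils through the receptor CXCR2 and, for some of them such as CXCL8, also CXCR1. CCL2 recruits monocytes, CCL20 attracts cells with CCR6, and CXCL16 and CX3CL1 are made as membrane proteins whose ectodomains are shed by proteases.

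The promoters of 7 of the 10 genes were matched in the RefSeq table of build GRCh38.p14. The last 150 bases before the start are shown for 4 of them, because these genes lie in 1 cluster on chromosome 4 and did not move together after knockdown. Capitals mark matches to a κB motif, searched on both strands in the strict form GGAATTTCC and in the wide form GGNNTTTCC, which includes the strict one. CXCL1 is on the plus strand (chr4:73869243-73869392), CXCL2 on the minus strand (chr4:74099196-74099345), CXCL5 on the minus strand (chr4:73998678-73998827) and CXCL8 on the plus strand (chr4:73740419-73740568).
CXCL1: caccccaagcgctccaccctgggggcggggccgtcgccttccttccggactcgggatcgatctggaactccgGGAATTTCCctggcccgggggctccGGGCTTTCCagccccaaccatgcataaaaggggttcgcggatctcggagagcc
CXCL2: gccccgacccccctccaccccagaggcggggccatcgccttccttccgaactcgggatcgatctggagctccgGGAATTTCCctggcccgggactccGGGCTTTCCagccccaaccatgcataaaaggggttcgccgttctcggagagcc
CXCL5: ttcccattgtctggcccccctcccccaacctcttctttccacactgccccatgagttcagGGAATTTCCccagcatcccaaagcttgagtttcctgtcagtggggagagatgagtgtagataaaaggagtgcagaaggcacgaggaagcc
CXCL8: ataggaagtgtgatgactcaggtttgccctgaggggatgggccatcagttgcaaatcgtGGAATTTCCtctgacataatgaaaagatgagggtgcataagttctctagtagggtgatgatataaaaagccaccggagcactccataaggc

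The strict κB form was found in the promoters of CXCL1, CXCL2, CXCL3, CXCL5, CXCL6 and CXCL8, the 6 genes studied here that lie in the cluster, and it is present in 0.472% of the 27305 promoters of the same length of 300 bases. Its first base lay 78 bases upstream of the start in CXCL1 and CXCL3, 77 in CXCL2, 90 in CXCL5, 89 in CXCL6 and 91 in CXCL8. CXCL1, CXCL2 and CXCL3 held a further match to the wide form, 53 bases upstream in each, and CCL20 held 1 match to the wide form on the minus strand, 79 bases upstream. The wide form is present in 6.26% of promoters. The AP-1 motif TGANTCA (7.76% of promoters) was found in CXCL8, 137 bases upstream, and in no other of the 7. The letters TATAAA (12% of promoters) were found in CXCL8 and CCL20. Over 109 bases centred on the strict κB match and compared without gaps, CXCL1 was 92.7% identical to CXCL3 and 76.1% identical to CXCL2. CXCL5 was 90.8% identical to CXCL6, and CXCL8 was 25.7% to 34.9% identical to the others. The κB matches lie 77 and 53 bases upstream in CXCL2, against 78 and 53 in CXCL1 and CXCL3. Part of the bases after the strict match of CXCL2 were thus compared out of register with those genes. The 76.1% therefore holds for a comparison without gaps only, and identity with a gap was not computed. A motif match describes the letters and is not evidence of binding.

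**Figure D1:**
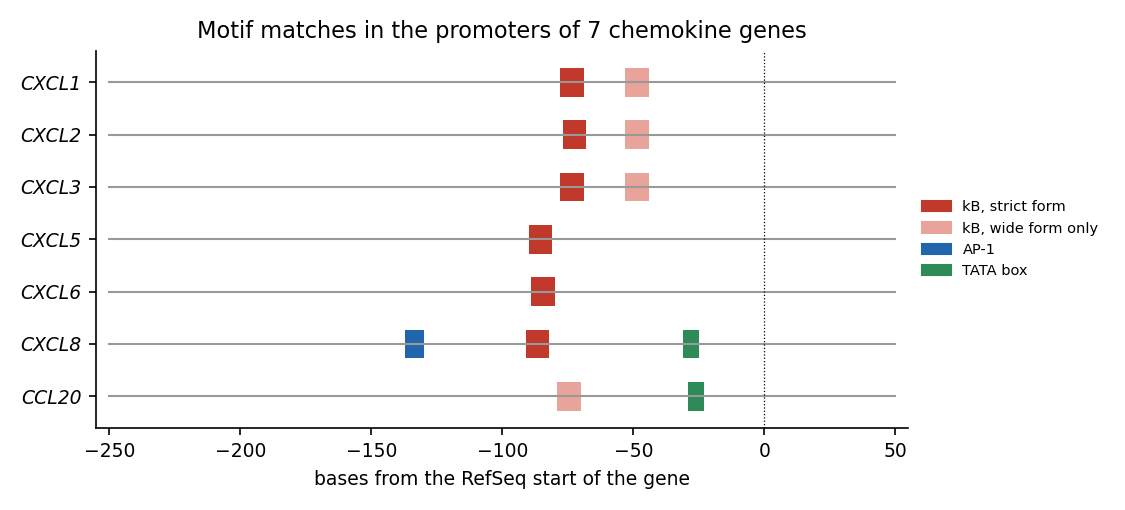
Matches to 4 motifs in the promoters of 7 chemokine genes, drawn along the bases from the RefSeq start (dotted line; 250 bases before to 50 after). Each of the 6 CXC genes shown has a strict κB match 77 to 91 bases upstream, and CXCL8 also has an AP-1 and a TATA match.

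The libraries held 16353783 to 21916062 counts, and a gene without counts was at most at 0.139 to 0.187 CPM, where the limit takes in counting error alone. CPM is the count relative to the library's total, scaled by the TMM factors of edgeR. Over the genes tested, siDAB2IP replicate 3 stood apart from its group, with a chi-square per degree of freedom of 33.5 and 36.4 against siDAB2IP replicates 1 and 2, which were at 9.20 with each other. Values without it are given for CXCL1, CXCL3, CXCL5, CXCL8 and CCL20. DAB2IP was at 103, 94.2 and 77.4 CPM in siControl replicates 1, 2 and 3 and at 27.5, 25.6 and 22.4 CPM in siDAB2IP replicates 1, 2 and 3, so the groups did not overlap (log2 fold change −1.86, SE 0.13, adjusted p = 9.71e-05 from edgeR). All 11 epithelial marker genes examined were above the limit in each library, and 5 of them had a positive and 6 a negative log2 fold change. KRT5 (3532 ± 378 to 1800 ± 40.9 CPM, SD, n = 3 per group), KRT14 (2186 ± 308 to 765 ± 285 CPM) and KRT17 fell, and the summed level, of which these abundant keratins are a large part, was 9930 to 11820 CPM in siControl and 6240 to 8133 CPM in siDAB2IP. Among 10 leukocyte markers, CD3E and FCGR3A were at 0 in all 6 libraries and PTPRC, which encodes CD45, had counts in 1. 3 leukocyte markers passed the limit in each library, of which CSF1R rose (log2 fold change 0.81, adjusted p = 0.0146 from edgeR), and the summed level was 44.0 to 79.4 CPM in siControl and 67.8 to 90.2 CPM in siDAB2IP, mostly CD14. The summed endothelial markers were at 24.0 to 34.1 and 15.95 to 17.4 CPM (KDR fell) and the fibroblast markers at 163 to 293 and 146 to 206 CPM (COL1A1 rose), and of 2 luminal hormone receptor genes PGR was at 0. Without siControl replicate 2 the calls of CSF1R (adjusted p = 0.0738 from edgeR), KRT17 (0.0547), KDR (0.122) and COL1A1 (0.067) were lost, and each of them was also lost without at least 1 other library, while KRT5 and KRT14 kept theirs without any single library. With the replicate block the markers TP63 (adjusted p = 0.00456 from edgeR), PECAM1 (0.0499) and DCN (0.0247) also fell. The part of these shifts in the chemokine values was not tested, and fewer cells of a type and less RNA per cell cannot be told apart in bulk RNA.

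After knockdown of DAB2IP, most of the called chemokine genes were lower and 1 was higher. Of the 10 genes, 7 passed the filter on low counts, 1 of them rose (CXCL8) and 3 fell (CXCL2, CXCL5 and CXCL16), where a call is an adjusted p under 0.05 from edgeR over all 15430 genes tested. Among all genes tested 6.55% rose and 7.65% fell. The median log2 fold change of the 7 was −0.20 against 0.01 for all genes tested. The same 4 genes had no overlap between the groups, with 1 higher and 3 lower. Over all genes tested, the groups did not overlap, with siDAB2IP higher, for 17.6% and, with siDAB2IP lower, for 18.3%. For each of these 4 genes the two-sided exact permutation p was 0.1, and a design of 3 against 3 cannot reach a smaller one. The rise of CXCL8 and the fall of CXCL5 depended on single libraries, as given with their values, in fits that ignored the replicate number. Nothing in the labels says that the libraries came from separate cultures, so p-values measure the spread between these libraries.

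**Figure D2:**
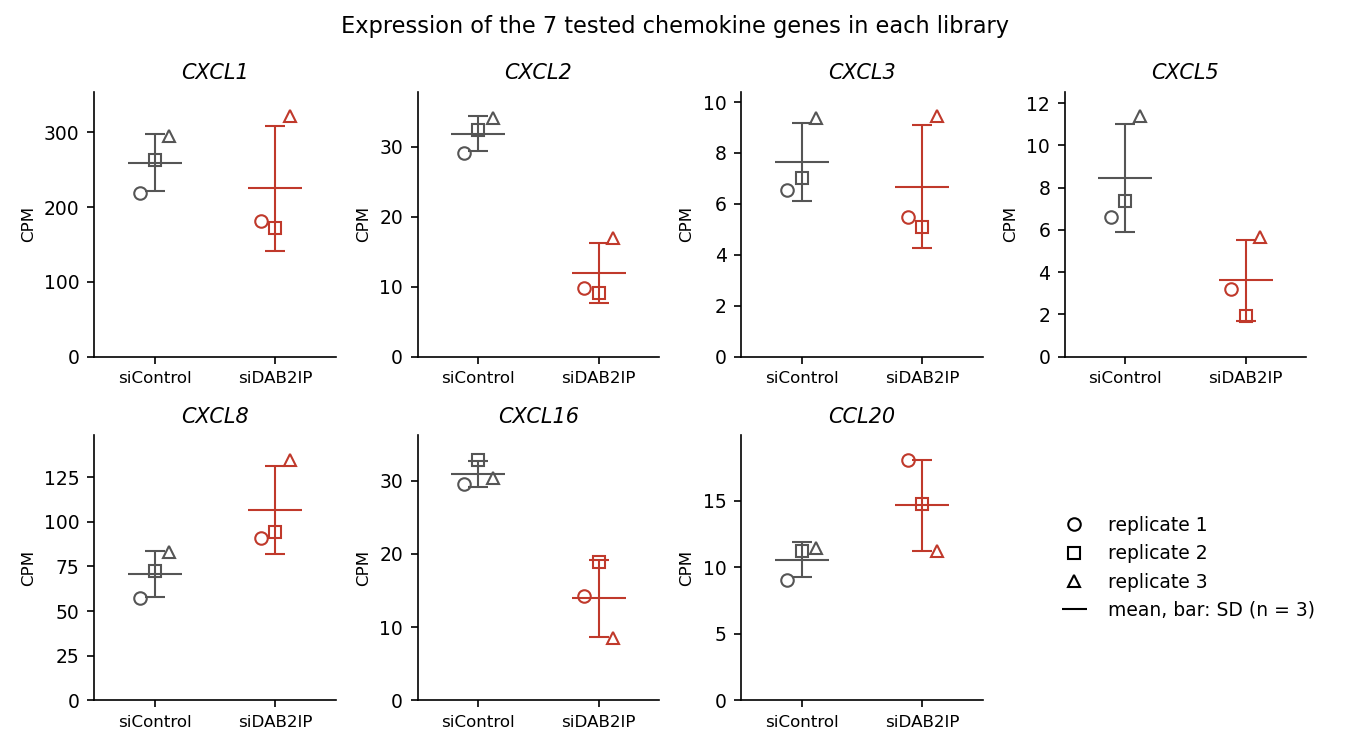
CPM of the 7 tested chemokine genes in each library (points, by replicate number), with the mean and SD of the 3 libraries of each group. The groups are apart for CXCL2, CXCL5, CXCL8 and CXCL16, and siDAB2IP replicate 3 is the highest siDAB2IP library for CXCL1, CXCL2, CXCL3, CXCL5 and CXCL8.

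CXCL2 had the largest change. It was at 29.1, 32.4 and 34.1 CPM in siControl replicates 1, 2 and 3 and at 9.87, 9.03 and 16.9 CPM in siDAB2IP replicates 1, 2 and 3. Each knockdown library was thus lower than each control library, and siDAB2IP replicate 3 was the highest of its group. The mean went from 31.8 ± 2.52 to 11.9 ± 4.34 CPM (SD, n = 3 per group), which is 0.375 of the control level (log2 fold change −1.42, SE 0.22, adjusted p = 0.00377 from edgeR). The call was kept without any single library, at log2 fold changes of −1.75 to −1.25.

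CXCL5 encodes a neutrophil chemokine that epithelial cells secrete. Its level was 6.60, 7.38 and 11.4 CPM in siControl replicates 1, 2 and 3 and 3.22, 1.94 and 5.68 CPM in siDAB2IP replicates 1, 2 and 3. The groups were apart, with siDAB2IP replicate 3 just below the lowest control library. The log2 fold change was −1.23 (SE 0.35, adjusted p = 0.0448 from edgeR), and it rested on 35 to 98 counts per siDAB2IP library. The call was lost without siControl replicate 1 (adjusted p = 0.0718 from edgeR), replicate 2 (0.101) or replicate 3 (0.159), and without siDAB2IP replicate 1 (0.105) or replicate 2 (0.0941), while without siDAB2IP replicate 3 it was kept at a log2 fold change of −1.71 (0.00275).

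CXCL8 was the chemokine gene that rose. It was at 57.3, 72.4 and 82.9 CPM in siControl replicates 1, 2 and 3 and at 91.05, 94.3 and 135 CPM in siDAB2IP replicates 1, 2 and 3. The lowest knockdown library was just above the highest control library, and in both groups replicate 1 was lowest and replicate 3 highest. The log2 fold change was 0.59 (SE 0.17, 1.51-fold, 95% interval 0.20 to 0.98 on the log2 scale), and the adjusted p of 0.0481 from edgeR was just under the threshold. The call was lost without siControl replicate 1 (log2 fold change 0.44, adjusted p = 0.177 from edgeR), replicate 2 (0.59, 0.153) or replicate 3 (0.70, 0.065) and without siDAB2IP replicate 2 (0.67, 0.0541) or replicate 3 (0.39, 0.0678), and was kept without siDAB2IP replicate 1 (0.69, 0.0439).

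CXCL1 and CXCL3, close relatives of CXCL2, did not pass the threshold. CXCL1 was at 219, 263 and 295.5 CPM in siControl replicates 1, 2 and 3 and at 181, 172 and 322 CPM in siDAB2IP replicates 1, 2 and 3. The first 2 knockdown libraries were below all controls, and the third was above all controls. The log2 fold change was −0.20 (95% interval −0.70 to 0.29, adjusted p = 0.588 from edgeR). Without siDAB2IP replicate 3, CXCL1 passed the threshold with a value of −0.55 on the log2 scale (adjusted p = 0.0102 from edgeR), so this library decided the call. CXCL3 had the same order of libraries at a much lower level, with 6.54, 7.01 and 9.39 CPM in siControl replicates 1, 2 and 3 and 5.47, 5.10 and 9.45 CPM in siDAB2IP replicates 1, 2 and 3. Its log2 fold change was −0.20 (95% interval −0.77 to 0.38, adjusted p = 0.662 from edgeR), and −0.53 (0.109) without siDAB2IP replicate 3.

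CXCL16, which encodes a transmembrane chemokine and scavenger receptor, lies outside the cluster, on chromosome 17 from 4733526 to 4739922. It was at 29.6, 32.9 and 30.4 CPM in siControl replicates 1, 2 and 3 and at 14.3, 18.9 and 8.52 CPM in siDAB2IP replicates 1, 2 and 3. All knockdown libraries were below all controls, and here siDAB2IP replicate 3 was the lowest, unlike for the tested CXC genes of the cluster. The log2 fold change was −1.15 (SE 0.23, adjusted p = 0.0121 from edgeR), and the call was kept without any single library. CXCL16 overlaps MED11 on the opposite strand, which had 89 to 131 counts per library and was not called (log2 fold change 0.01, adjusted p = 0.984 from edgeR). The strand setting of the counting is not given in the sources used here.

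CCL20, on chromosome 2, was at 9.03, 11.2 and 11.4 CPM in siControl replicates 1, 2 and 3 and at 18.1, 14.7 and 11.2 CPM in siDAB2IP replicates 1, 2 and 3. The first 2 knockdown libraries were above the controls and the third lay among them. The log2 fold change was 0.47 (SE 0.19, 95% interval 0.04 to 0.90, unadjusted p = 0.0338, adjusted p = 0.13 from edgeR), and without siDAB2IP replicate 3 it passed the threshold at 0.63 (adjusted p = 0.0198 from edgeR).

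The other 3 genes were too low to test. CXCL6, which lies inside the cluster and carries the strict κB form, had 0 counts in all 6 libraries. CCL2 had 2, 11 and 6 counts in siControl replicates 1, 2 and 3 and 4, 2 and 5 counts in siDAB2IP replicates 1, 2 and 3, with overlapping groups. CX3CL1 had 1, 0 and 0 counts in siControl and 2, 1 and 0 counts in siDAB2IP. No difference in these genes was detectable at this depth.

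**Figure D3:**
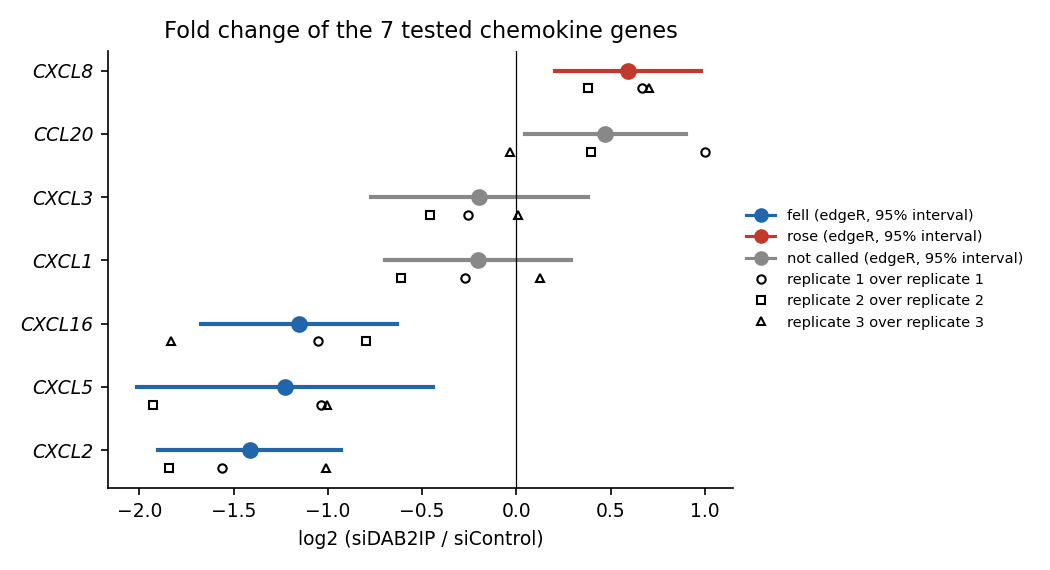
Log2 fold change of siDAB2IP over siControl for the 7 tested chemokine genes (filled points, edgeR estimate with its 95% interval), with the ratio of the libraries of the same number below each (open symbols). CXCL2, CXCL5 and CXCL16 lie below 0 and CXCL8 above 0 in all 3 ratios, while the ratios of CXCL1, CXCL3 and CCL20 fall on both sides of 0.

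The order of the genes was compared per gene length, in FPKM, which relates the fragments of a gene to its length and to the depth of the library. In siControl the order was CXCL1 (198 ± 29.3 FPKM, SD, n = 3), CXCL8 (30.9 ± 5.63), CXCL2 (21.0 ± 1.68), CXCL16 (10.98 ± 0.646), CCL20 (6.57 ± 0.832), CXCL3 (3.42 ± 0.680), CXCL5 (3.30 ± 1.00) and CCL2 (0.164 ± 0.0973). Neighbours in this order did not overlap in their library values, except CXCL3 and CXCL5. After knockdown CXCL1 (172 ± 63.8 FPKM) and CXCL8 (46.4 ± 10.6) were still highest, and CCL20 (9.10 ± 2.14), CXCL2 (7.87 ± 2.85) and CXCL16 (4.93 ± 1.85) followed, each overlapping the next. CXCL3 (2.97 ± 1.07) overlapped CXCL16, and CXCL5 (1.41 ± 0.740) was below CXCL3 in all libraries. Summed over the 10 genes, chemokine FPKM was 275 ± 39.1 in siControl and 245 ± 75.5 in siDAB2IP, with overlapping groups (two-sided exact permutation test, p = 0.6).

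CXCL1 made up most of this sum, 71.8% to 72.6% in siControl and 66.6% to 74.0% in siDAB2IP. The share of CXCL8 was 10.7% to 11.6% in the control libraries and 17.7% to 20.8% after knockdown, and that of CXCL2 was 7.23% to 8.23% and 3.02% to 3.36%. The shares of CXCL8 and CXCL2 did not overlap between the groups, whereas the size of the sum did.

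Ratios between genes within a library need no scaling between libraries. They were chosen after the data had been seen. The log2 ratio of CXCL8 to CXCL2 counts was 0.98, 1.16 and 1.28 in siControl replicates 1, 2 and 3 and 3.21, 3.38 and 2.995 in siDAB2IP replicates 1, 2 and 3, a difference in means of 2.05. CXCL1 over CXCL2 went from 3.02 ± 0.102 to 4.23 ± 0.031 and CXCL3 over CXCL2 from −2.07 ± 0.188 to −0.84 ± 0.013 (SD, n = 3 per group). The spread of CXCL1 and CXCL3 against CXCL2 among the siDAB2IP libraries was thus small, although siDAB2IP replicate 3 was far above the other two in CPM for each of these genes. CXCL8 over CXCL1 went from −1.88 ± 0.054 to −1.04 ± 0.196. For all 4 ratios each siDAB2IP library was above each siControl library. For CXCL8 over CXCL2 this followed from the CPM of both genes, which lay apart in opposite directions. All ratios but CXCL8 over CXCL1 share CXCL2, so they are not independent. The two-sided exact permutation p was 0.1 for each (0.1 after Benjamini-Hochberg adjustment over the 4), the smallest value possible. Because the genes were chosen with their values known, the ratios are given as a description, and other gene pairs were not examined.

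**Figure D4:**
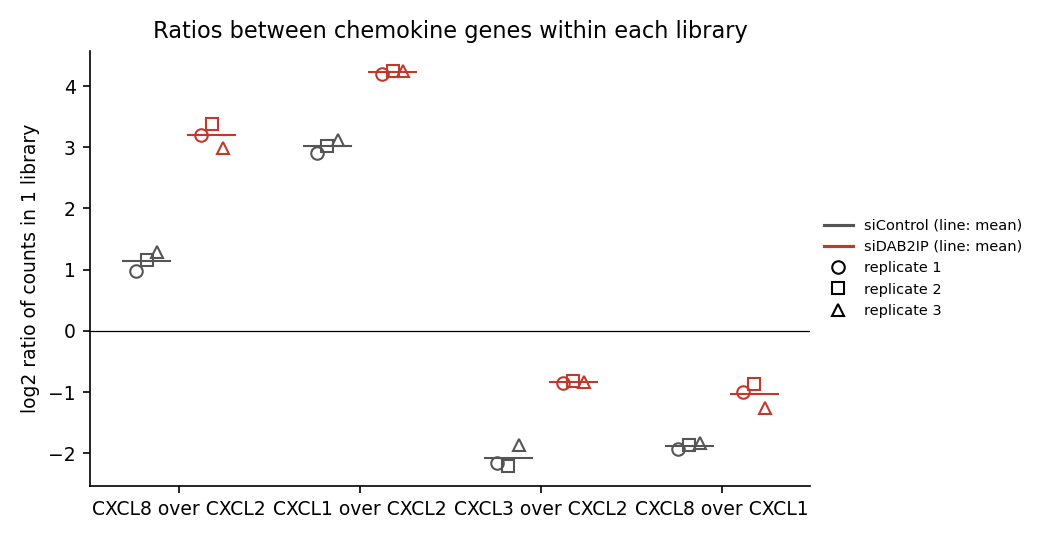
Log2 ratio of the counts of 2 chemokine genes within each library (points, by replicate number; line, mean of 3 libraries), siControl in gray and siDAB2IP in red. All 4 ratios are higher in each siDAB2IP library than in any siControl library.

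CXCL1, CXCL2 and CXCL3 are similar in sequence, so reads could be placed on the wrong copy. In the GENCODE release 29 transcripts, 1.83% of the windows of 150 bases of CXCL2 and 1.15% of those of CXCL3 also occur in another of the 3 genes, and none of those of CXCL1 do. With windows of 75 bases the shares were 7.07% for CXCL2, 4.57% for CXCL3 and 0.245% for CXCL1. With the counts of the 3 genes summed, the feature was at 299 ± 42.1 CPM in siControl and 244 ± 90.6 CPM in siDAB2IP (SD, n = 3 per group; log2 fold change −0.29, adjusted p = 0.415 from edgeR). Most of this sum is CXCL1, and the fall of CXCL2 is not visible in it.

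The CXC genes studied here span 358.8 kb of chromosome 4, from CXCL8 at 73740506 to 73743716 to CXCL2 at 74097035 to 74099293 (GRCh38), with CXCL6, CXCL1, CXCL5 and CXCL3 between them. The platelet chemokine genes PF4V1, PF4 and PPBP also lie in the span and were not tested. CXCL8 at 1 end had a positive log2 fold change and CXCL2 at the other a negative one, and the call of CXCL8 depended on single libraries. Within 1 Mb of the span 39 other genes are annotated, of which 10 were tested. Of these 1 rose and 0 fell, against 6.55% and 7.65% of all genes tested. The epidermal growth factor family genes EPGN (log2 fold change −0.42, adjusted p = 0.0874 from edgeR) and EREG (−0.80, 0.0895) were lower but were not called. The gene that rose was RASSF6, a RAS-association domain gene 169 kb before the start of CXCL8. It was at 5.05, 4.64 and 4.64 CPM in siControl replicates 1, 2 and 3 and at 8.52, 11.1 and 13.2 CPM in siDAB2IP replicates 1, 2 and 3 (log2 fold change 1.198, SE 0.20, adjusted p = 0.00499 from edgeR). The growth factor gene AREG was at 416 ± 127 and 510 ± 28.0 CPM (SD, n = 3 per group) and was not called (adjusted p = 0.348 from edgeR).

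**Figure D5:**
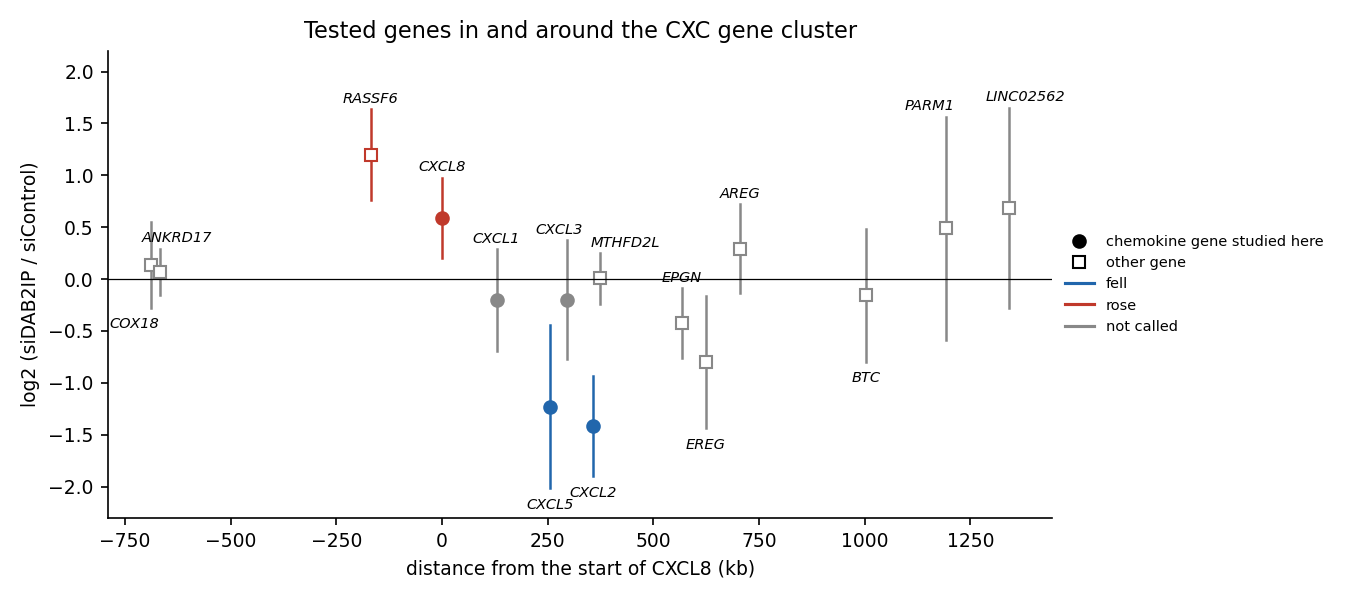
Log2 fold change with its 95% interval from edgeR of the tested genes in and around the CXC gene cluster, by distance from the start of CXCL8 in kb. CXCL8 and RASSF6 rose, CXCL5 and CXCL2 fell, and the other tested genes did not pass the threshold.

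The genes whose log2 CPM followed CXCL8 most closely over the 6 libraries were HM13, PSENEN, INAFM2, PTDSS2 and AEN (Pearson r 0.9935 to 0.9978), none of which was called (adjusted p = 0.0583 to 0.137 from edgeR). Those closest to CXCL2 were TMPRSS3, PRKACA, LINC00235, AC021945.1 and MAP3K12 (0.9936 to 0.9963), of which all but TMPRSS3 fell. All these values share the difference between the groups and the libraries' scaling, and the genes were picked for the highest r among 15430, so they are given as a description.

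Chemokine mRNAs are known for AU-rich elements in the 3′ UTR, whose core is ATTTA in DNA letters. In the longest coding transcript of each gene, CXCL2 held 10 copies in 721 bases, or 13.9 per kb, and 0.545% of the 12649 tested genes with a 3′ UTR were as dense or denser. CXCL3 held 10.4 per kb, CXCL8 7.19, CXCL1 7.08, CCL20 6.65, CXCL5 5.51 and CXCL6 5.36, against a median of 1.53 over the tested genes. By number of copies rather than density, 12.1% of the tested genes held as many as CXCL2 or more. Among the genes just named, this share ran from 10.5% for CXCL5 to 40.3% for CCL20, which held 3 copies in 451 bases. CXCL16 held 1 copy in 977 bases.

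A list of 10 genes of proteins that act on mRNA decay or stability, through AU-rich or other elements, was tested. Of these 4 fell and the other 6 were not called (40% fell, against 7.65% of all genes tested), with a median log2 fold change of −0.32. ZFP36 encodes tristetraprolin, which binds AU-rich elements and triggers decay. It went from 82.4 ± 6.39 to 59.0 ± 5.59 CPM (SD, n = 3 per group; log2 fold change −0.48, adjusted p = 0.0167 from edgeR). ZC3H12A, which encodes the endonuclease regnase-1 (−0.51, adjusted p = 0.0198), KHSRP, a decay factor (−0.50, 0.0234), and ARID5A, which stabilizes inflammatory mRNAs (−1.17, 0.0432), also fell in edgeR. The list thus holds both destabilizing and stabilizing factors among the genes that fell. ZFP36 kept its call without any single library. ZC3H12A lost it without siControl replicate 1 or 2 or siDAB2IP replicate 1 or 2 (adjusted p = 0.0521 to 0.0672 from edgeR), KHSRP without any siControl library (0.0544 to 0.0622), and ARID5A without any library but siDAB2IP replicate 1 (0.067 to 0.122). HNRNPD (adjusted p = 0.0886) fell with the replicate number as a block (adjusted p = 0.0372 from edgeR).

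Upstream of the chemokine genes, 9 genes of NF-κB subunits and IκB kinases were tested. Of these 1 rose and 1 fell, 11.1% each against 6.55% and 7.65% of all genes tested, and the median log2 fold change was 0.09 against 0.01. NFKB1, which encodes p105 and p50, went from 87.4 ± 3.73 to 63.6 ± 7.52 CPM (SD, n = 3 per group; log2 fold change −0.46, adjusted p = 0.0217 from edgeR). NFKB1 lost the call without siControl replicate 2 (adjusted p = 0.0828 from edgeR) or replicate 3 (0.059). Of 10 genes of NF-κB inhibitors and cofactors, 3 fell and 1 rose (30% and 10%, against 7.65% and 6.55% of all genes tested), with a median log2 fold change of −0.23. NFKBIA, the gene of IκBα and a feedback inhibitor, was at 194, 181 and 159 CPM in siControl replicates 1, 2 and 3 and at 137, 127 and 120.4 CPM in siDAB2IP replicates 1, 2 and 3, so all knockdown libraries were lower (log2 fold change −0.47, adjusted p = 0.0188 from edgeR). NFKBIZ, which encodes the cofactor IκBζ (−0.56, 0.00667), and BCL3, another nuclear cofactor (−0.49, 0.016), fell, and NFKBIB, the gene of IκBβ, rose (0.50, 0.0441). NFKBIZ kept its call without any single library, while NFKBIA lost it without siControl replicate 1 or 2 or siDAB2IP replicate 2 (adjusted p = 0.0513 to 0.0726 from edgeR), BCL3 without siControl replicate 1 or 2 (0.0537 and 0.0604) and NFKBIB without any library but siDAB2IP replicate 3 (0.0568 to 0.194). TNIP1 (adjusted p = 0.122) fell with the replicate block (adjusted p = 0.0499 from edgeR).

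The list of 23 genes held cytokines that induce chemokines, their receptors, and also TLR2, TLR3, TLR4, TLR5 and TRAF3IP2, and 19 were tested. Of these 2 rose and 5 fell (10.5% and 26.3%, against 6.55% and 7.65% of all genes tested), with a median log2 fold change of −0.17. IL1B, which encodes interleukin-1β, was at 3.18, 2.46 and 1.41 CPM in siControl replicates 1, 2 and 3 and at 6.04, 7.26 and 4.70 CPM in siDAB2IP replicates 1, 2 and 3. It was thus low in all libraries and higher in each knockdown library (log2 fold change 1.35, SE 0.30, adjusted p = 0.0168 from edgeR; 0.067 without siControl replicate 2). The other gene that rose was IL1RN, the gene of the interleukin-1 receptor antagonist (0.87, adjusted p = 0.0479 from edgeR). In siDAB2IP replicate 3 it was at 4.75 CPM, just above the highest control library at 4.52 CPM, and it was not refitted without single libraries. The interleukin-1 receptor genes IL1R1 (−0.87, adjusted p = 0.00502) and IL1RAP (−0.88, 0.00204), the interleukin-6 receptor gene IL6R (−1.16, 0.00205) and the oncostatin M receptor gene OSMR (−0.99, 0.00338) fell in edgeR, each without any single library as well. TNFRSF1B, a TNF receptor gene, fell (−1.35, 0.0451), but lost the call without any library except siDAB2IP replicate 1 (adjusted p = 0.0736 to 0.165 from edgeR). TNFRSF1B had 36, 56 and 33 counts in siControl and 26, 12 and 9 in siDAB2IP (replicates 1, 2 and 3). It passed the filter on low counts through the control libraries, and was not tested where at least 10 counts were required in every library. OSMR overlaps RICTOR on the opposite strand. IL1R2, a decoy receptor gene (adjusted p = 0.0737), fell with the replicate block (adjusted p = 0.0103 from edgeR). IL1R2 had 31, 21 and 53 counts in siControl and 10, 1 and 16 in siDAB2IP (replicates 1, 2 and 3). It passed the filter on low counts through the control libraries, where it was higher.

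Of 23 chemokine receptor genes, 5 were tested. Of these 2 fell and 1 rose (40% and 20%, against 7.65% and 6.55% of all genes tested). CXCR1, a receptor for CXCL8, was at 4.24, 3.48 and 1.53 CPM in siControl replicates 1, 2 and 3 and at 0.733, 0.498 and 0.232 CPM in siDAB2IP replicates 1, 2 and 3. All knockdown libraries were lower, at 4 to 13 counts each (log2 fold change −2.64, SE 0.49, adjusted p = 0.00792 from edgeR). CXCR1 passed the filter on low counts through the control libraries, where it was higher, and was not tested where at least 10 counts were required in every library. CXCR2, the receptor shared by the neutrophil chemokines, was too low to test. It had 10, 5 and 2 counts in siControl replicates 1, 2 and 3. In siDAB2IP replicates 1, 2 and 3 it had 2, 1 and 0. CXCR4, the receptor of CXCL12, went from 10.8 ± 0.473 to 3.86 ± 1.74 CPM (SD, n = 3 per group; log2 fold change −1.48, adjusted p = 0.00732 from edgeR). The calls of CXCR1 and CXCR4 were kept without any single library. ACKR3, an atypical receptor that scavenges CXCL12, rose from 0.849 ± 0.18 to 3.27 ± 2.05 CPM (SD, n = 3 per group; log2 fold change 1.94, adjusted p = 0.0204 from edgeR). It was at 1.92, 2.27 and 5.62 CPM in siDAB2IP replicates 1, 2 and 3, so replicate 3 was far above the others. The call was lost without siControl replicate 1 (adjusted p = 0.079 from edgeR), replicate 2 (0.092) or replicate 3 (0.0543). ACKR1, a decoy receptor for CXCL8 and CXCL1, was at 61.4 ± 12.8 and 39.7 ± 15.9 CPM (SD, n = 3 per group). It was not called (log2 fold change −0.63, adjusted p = 0.124 from edgeR) but fell with the replicate block (adjusted p = 0.00495 from edgeR), and it overlaps CADM3 on the same strand.

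Most of the remaining chemokine ligands were too low to test. Of 36 further ligand genes, 35 were found in the table, 17 had no counts in any library and 2 passed the filter, with neither called. These were CCL28, a mucosal chemokine (13.3 ± 6.16 and 10.2 ± 4.50 CPM, SD, n = 3 per group; adjusted p = 0.562 from edgeR), and CXCL14 (0.979 ± 0.189 and 0.676 ± 0.188 CPM; 0.383). Of 8 genes of proteases that shed or trim chemokines, 6 were tested. Of these MMP9 fell and the other 5 were not called (16.7% fell, against 7.65% of all genes tested). MMP9, a gelatinase, had 23, 31 and 18 counts in siControl replicates 1, 2 and 3 and 6, 7 and 1 in siDAB2IP replicates 1, 2 and 3 (log2 fold change −2.29, adjusted p = 0.0168 from edgeR), and lost the call without siControl replicate 1 (0.0575) or replicate 2 (0.0754). It too passed the filter through the control libraries. ADAM17, which sheds CX3CL1, was not called (−0.41, 0.146) and fell with the replicate block (adjusted p = 0.0357 from edgeR).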

How the data were processed

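The authors deposited whole-number counts per gene for 6 RNA-Seq libraries of MCF10A cells, without normalization, and FPKM values made from them. The submitters' processing notes name STAR 2.6.1d, featureCounts 1.5.0-p3, DESeq2 1.20.0, edgeR 3.24.3 and hg38, and genes matched GENCODE release 29. The test on counts was the quasi-likelihood test of edgeR 4.0.16 in R 4.3.3 (filterByExpr on the groups, TMM scaling, siDAB2IP against siControl, Benjamini-Hochberg adjustment over 15430 genes). Chemokine genes and gene lists were chosen with earlier results of these data known. Named genes were the 10 chemokine genes, DAB2IP, genes overlapping them, called genes within 1 Mb of the cluster, up to 6 called genes per list by smallest p, and the 5 genes most like CXCL8 and like CXCL2. IL1RN, EPGN, EREG, AREG, CXCR2, CCL28, CXCL14, CD14, PTPRC, PF4V1, PF4, PPBP and genes called only with the block were named after their values were seen. After subtraction of group means, libraries with the same replicate number correlated at 0.265, 0.155 and 0.255 and the others at −0.278 to 0.021. The numbers were therefore taken to pair the libraries in the replicate block and in the ratios of libraries of the same number. The main test, the fits without single libraries and the permutation tests ignored the pairing. The labels do not say what a number stands for. Scripts were tested on simulated counts. Alternatives were DESeq2 1.42.0, RLE or library size scaling, other filters and thresholds, the replicate block, limma 3.58.1 on log2(FPKM + 1) and log2(FPKM + 0.1), leaving out each library and, added after seeing the data, both libraries of a number. Some results are not reported here.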

Additional observations from a re-analysis of the deposited data

How the results depend on the processing

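All 7 tested chemokine genes kept the sign of their log2 fold change in each of the 17 other fits, as did the 28 called genes that were refitted, in the fits that could test them. With the replicate block, CXCL2 (adjusted p = 0.000914 from edgeR), CXCL16 (0.00343), CXCL8 (0.0041) and CXCL5 (0.00513) were called as before, and the pairing added no call among the chemokine genes. CXCL8 was lost (0 chemokine genes rose) with at least 10 counts in every library, with limma on log2(FPKM + 1) (adjusted p = 0.0909) and on log2(FPKM + 0.1) (0.0939), at an adjusted p under 0.01 and where the log2 fold change also had to reach 1 in size. CXCL5 was lost with library size only (adjusted p = 0.0533 from edgeR) and with limma (0.0651 and 0.0737). At an adjusted p under 0.01, 1 chemokine gene fell, CXCL2. Leaving out single libraries gave 0 to 1 chemokine genes that rose and 2 to 4 that fell. Without both libraries of number 1, 0 rose and 0 fell, without those of number 2, 0 rose and 1 fell, and without those of number 3, 2 rose and 4 fell, with CCL20 and CXCL1 added. These fits have 2 libraries per group, and the cause was not tested. Of the 28 refitted genes, 2 (DAB2IP and IL6R) passed in all of their fits. Over all genes, 1011 rose and 1181 fell, and 1479 and 1754 with the replicate block. Leaving out single libraries gave 264 (without siControl replicate 2) to 1172 that rose and 459 to 1352 that fell. The number of libraries and, for CXCL5, CCL2 and CX3CL1, the counts limit the precision.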
